A study of Mus musculus with 2 samples.

Results

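The cells described here are thymic cells with the transcripts of type 2 conventional dendritic cells (cDC2), found among thymocytes that had been sorted as invariant natural killer T (iNKT) cells. They were picked by their counts of unique molecular identifiers (UMIs, 1 for each transcript molecule caught). A cell had to hold at least 5 UMIs of H2-Aa, at least 5 of Cst3, at least 1 summed over Mgl2, Cd209a and Sirpa, none of Xcr1 or Clec9a, and at most 1 of Cd79a. The rule was applied to cells with at least 1000 genes, at most 5% mitochondrial UMIs, and at least 80% of their hashtag UMIs on hashtag row 11, 13, 15 or 17. It found 310 cells among the 4249 cells of these 4 rows, in a matrix of 16179 barcodes. Because gene counts chose the cells, every level below is a description without a test.

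Dendritic cells take up antigen, load peptides onto MHC class II and show them to T cells. The cDC1 lineage depends on IRF8 and carries XCR1 and CLEC9A, whereas cDC2 depend on IRF4 and carry SIRPα together with C-type lectins such as MGL2 and DC-SIGN (Cd209a). In the thymus, cDC2 include cells that enter from the blood, and they take part with medullary epithelium and cDC1 in negative selection and in the generation of regulatory T cells. When activated, both lineages switch to a shared program with the migration receptor CCR7 and the actin bundler fascin (Fscn1).

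The mice were C57BL/6 controls (Ctrl) and T-KO mice, in which a floxed Kidins220 allele is deleted in T lineage cells by Cre under the proximal Lck promoter, so that dendritic cells are not the intended target of the deletion. Cells of 4 thymi of a genotype were pooled, stained with CD1d tetramers and antibodies, and sorted as stage 0 iNKT cells (TCRβ+, CD1d tetramer+, CD24+, NK1.1-) or as stage 3 iNKT cells (NK1.1+, CD24-, CD44+). This was carried out 2 times in parallel, and ages were not given in the labels. The 8 populations were then marked with hashtag antibodies against surface proteins of all leukocytes and sequenced as 1 pool. The labels, as far as they were given here, put stage 0 cells of Ctrl 1, Ctrl 2 and T-KO 1 on hashtags 1, 3 and 5, and stage 3 cells on hashtags 2, 4 and 6. In the matrix, nearly all hashtag UMIs lay on rows 11 to 18, whose link to the hashtags of the labels was not given. Rows 11, 13, 15 and 17 were therefore kept as 4 populations of unknown genotype, without a comparison of T-KO with Ctrl. Cd24a, which encodes the CD24 antigen of the stage 0 gate, was at 313 to 365 counts per 1000000 UMIs (CPM) over all cells of rows 11, 13, 15 and 17, against 23.3 to 34.2 CPM in rows 12, 14, 16 and 18. Klrb1c, which encodes NK1.1, was at 4.78 to 6.57 CPM in the first 4 rows and at 328 to 444 CPM in the others. In the cDC2-like cells themselves Cd24a was at 154 to 202 CPM over the 4 rows. Kidins220 itself was at 16 CPM in the 310 cells (95% Poisson interval 11.5 to 21.5), and at 19.5, 5.97, 15.1 and 17.6 CPM in rows 11, 13, 15 and 17. With 57, 65 and 28 cDC2-like cells in rows 13, 15 and 17, these levels by row rest on few UMIs, and no difference is read from them. Since every value comes from 1 pooled sample, the intervals given here cover counting error only.

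The share of cDC2-like cells differed between the 4 rows. Row 11 held 160 of them among 1176 cells (13.6%, 95% Clopper-Pearson interval 11.7 to 15.7). Row 13 held 57 of 1601 (3.56%, 2.71 to 4.59), row 15 held 65 of 889 (7.31%, 5.69 to 9.22), and row 17 held 28 of 583 (4.8%, 3.21 to 6.87). Row 11 was above the other rows by more than counting error, and the intervals of rows 13 and 17 overlapped. Thus 51.6% of all cDC2-like cells came from row 11, and values over all 310 cells weigh that row most. In all 4 rows together the share was 7.30% (6.53 to 8.12). The sort was aimed at T cells, so that these shares describe what passed the gate and not the dendritic cells of the thymus.

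For comparison, cDC1-like cells were taken as cells with the same H2-Aa, Cst3 and Cd79a limits and at least 1 UMI of Xcr1 or Clec9a, and B cell-like cells as cells with at least 5 UMIs of Cd79a and of H2-Aa and at most 4 of Cst3. The rows held 397 and 479 of them. Of all cDC2-like and cDC1-like cells, those with cDC2 transcripts made up 51.9% in row 11, 30% in row 13, 42.2% in row 15 and 50.9% in row 17. The interval of row 13 (23.6 to 37.1) lay below that of row 11 (46.2 to 57.6), and those of rows 15 and 17 overlapped with that of row 11. Hence row 13 was low in cDC2-like cells also relative to cDC1-like cells, while its share of B cell-like cells, 13.9%, was nominally the highest of the 4 rows.

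**Figure D1:**
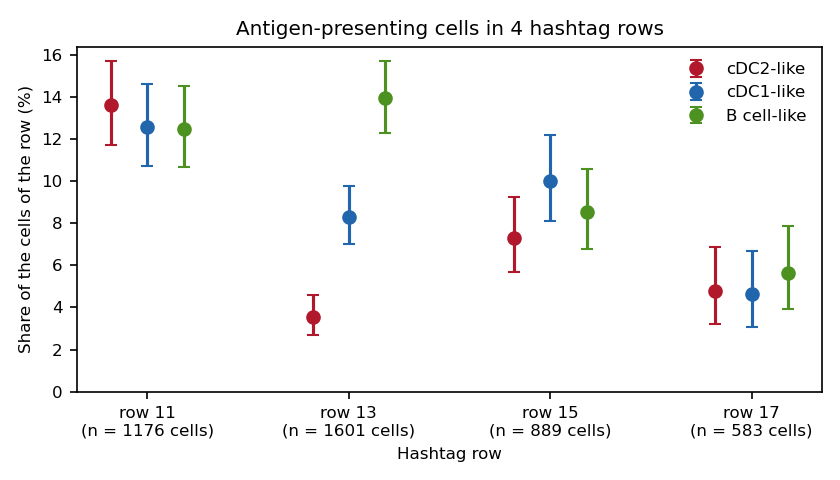
Share of cDC2-like, cDC1-like and B cell-like cells (y axis, % of the cells of the row) in hashtag rows 11, 13, 15 and 17 (x axis). Points are single values and bars are 95% Clopper-Pearson intervals. The cDC2-like share runs from 3.56% in row 13 to 13.6% in row 11.

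Most of the 310 cells lay well inside the limits of the rule. Their median count was 101 UMIs for H2-Aa and 51 for Cst3. Just inside the limits, 7 cells had 5 to 9 UMIs of H2-Aa, 13 cells had 5 to 9 of Cst3, and 22 cells had a single UMI over Mgl2, Cd209a and Sirpa. Just outside, 10 cells missed only the H2-Aa limit with 1 to 4 UMIs, 7 cells missed only the Cst3 limit with 1 to 4, and 55 cells had no UMI of the 3 surface receptor genes. Mgl2 was seen in 235 cDC2-like cells, Cd209a in 220 and Sirpa in 258, and all 3 in 147. Sirpa alone let in 41 cells. Per cell, the median was 8700.5 UMIs and 2766.5 genes, with 1.38% mitochondrial UMIs, whereas the 3939 other cells of the rows, here called the other cells, had a median of 6885 UMIs. Of the other cells, 68.9% held at least 3 UMIs of 5 T cell genes named below, and the other cells also include the cDC1-like and B cell-like cells, which had medians of 11943 and 5143 UMIs.

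Of the genes that define the class, Mgl2, a galactose-type lectin, stood at 670 CPM (639 to 701) against 8.93 CPM in the other cells and 21.8 CPM in cDC1-like cells. By row it was at 595, 735, 738 and 840 CPM in rows 11, 13, 15 and 17. Cd209a was at 694 CPM (663 to 726), with 577, 637, 821 and 1267 CPM in the 4 rows. It reached 18.7 CPM in the other cells and 62.9 CPM in cDC1-like cells. Sirpa, the inhibitory receptor for CD47, was at 264 CPM (244 to 284) and ranged over the rows from 233 to 317 CPM. These 3 genes were part of the rule, and in each row their levels were above those of both comparison classes. Mgl2 and Clec10a are near copies of each other, as are the Cd209 genes, so that the split of reads within these families is uncertain.

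Against the other cells, 12 of the 13 genes of the cDC2 list that could be measured were at least 2-fold higher and 0 were 2-fold lower. The list includes Mgl2, Cd209a and Sirpa of the rule, and without them 9 of 10 were higher. Among all 8401 genes measured in this comparison, 8.42% were at least 2-fold higher and 9.08% at least 2-fold lower, with a median log2 ratio of -0.21. These shares apply to each list set against the other cells below. A gene counted as measured if at least 10% of the cells of either class held it. Genes high only in cDC2-like cells thus entered through these cells, and counts of higher genes are partly set by this limit. Ratios are on the scale of log2(CPM + 10), which understates differences of low genes. Clec12a was the gene within 2-fold. Csf1r, the receptor of the growth factor M-CSF, was at 190 CPM (174 to 207) and between 173 and 221 CPM in the rows, against 5.3 CPM in the other cells and 22 CPM in cDC1-like cells. Irf4, the transcription factor of cDC2, was at 88.4, 106, 90.8 and 145 CPM in rows 11, 13, 15 and 17, above the range of 5.22 to 28.2 CPM of the other cells in the same rows and above the range of 0 to 11.4 CPM of cDC1-like cells. Zeb2 was at 100 CPM against 7.34 CPM in cDC1-like cells, and Klf4 at 105 against 49.3 CPM. Both encode zinc finger factors with roles in cDC2 subsets. Itgam (CD11b) was low, at 13.7 CPM with UMIs in 8.71% of the cells, and Cx3cr1 at 19.3 CPM, also in 8.71%.

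**Figure D2:**
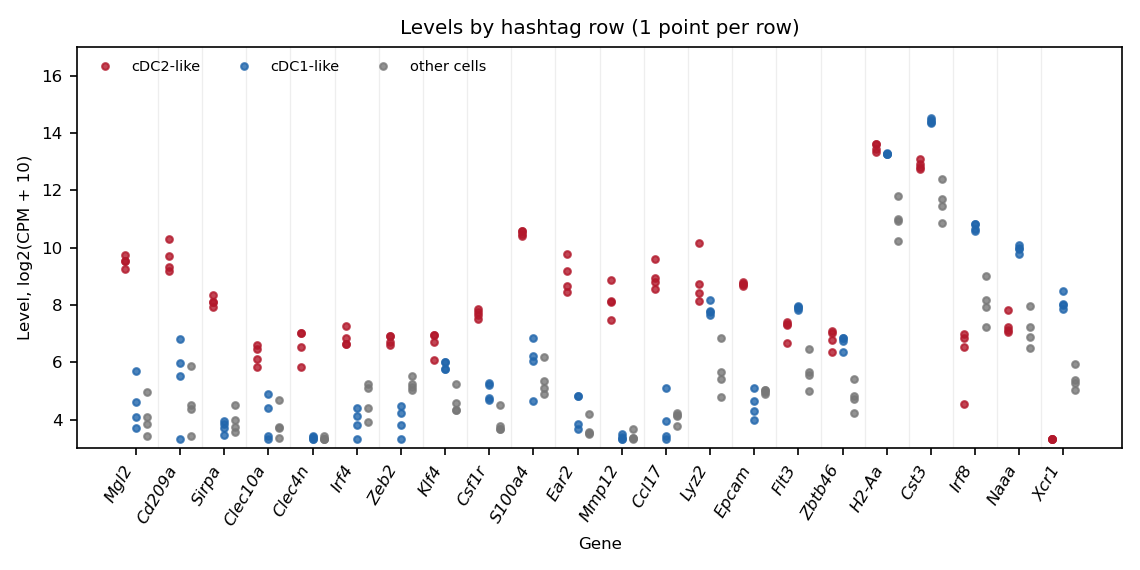
Levels of 22 genes as log2(CPM + 10) (y axis) in cDC2-like cells, cDC1-like cells and all other cells of the same rows, 1 point per hashtag row. Mgl2, Cd209a, Sirpa, Clec4n, S100a4, Ear2, Mmp12, Ccl17 and Epcam lie higher in cDC2-like cells in each row, whereas Cst3, Irf8, Naaa and Xcr1 lie higher in cDC1-like cells. Mgl2, Cd209a, Sirpa, H2-Aa, Cst3 and Xcr1 were used to choose the cells.

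General dendritic cell genes were higher too. All 10 genes of the pan-DC list were at least 2-fold higher than in the other cells, among them H2-Aa and Cst3 of the rule, without which 8 of 8 were higher. Zbtb46, a transcription factor of conventional dendritic cells, was at 100 CPM (88.6 to 113) in cDC2-like and at 101 CPM in cDC1-like cells. Flt3, the cytokine receptor that drives their development, was at 145 CPM against 228 CPM in cDC1-like cells and 45.7 CPM in the other cells. Itgax (CD11c) was at 299 CPM against 144 CPM in cDC1-like cells. Kmo and Bcl11a were at 132 and 102 CPM, and at 73.2 and 53.7 CPM in cDC1-like cells.

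Genes of antigen presentation were abundant. Of 11 MHC class II genes, 9 were at least 2-fold higher than in the other cells and 0 were lower by that much. H2-Aa was part of the rule, and without it 8 of 10 were higher. Cd74, the invariant chain, made up 39203 CPM, with 36721 to 40784 CPM over the rows, against 7930 CPM in the other cells and 30400 CPM in cDC1-like cells. H2-Ab1 was at 10845 CPM against 7971 CPM in cDC1-like cells. The peptide exchange factors H2-DMa and H2-DMb1 were at 956 and 822 CPM. H2-DMb2 was at 566 CPM against 120 CPM in cDC1-like cells, and H2-Oa was at 203 against 94.8 CPM. Ciita, the master regulator of the group, was at 264 CPM in cDC2-like cells and at 227 CPM in cDC1-like cells. The proteases and the thiol reductase that prepare antigen were led by Ifi30 with 2760 CPM (1207 CPM in cDC1-like cells), Ctss with 1070 CPM (316 CPM), Ctsz with 750 CPM (388 CPM) and Ctsh with 578 CPM (230 CPM). Of 9 genes of this list, 6 were at least 2-fold higher than in the other cells, and 5 of 8 without Cst3 of the rule. Ctsl, the cathepsin of cortical epithelium, was at 11.5 CPM. Cst3 went the other way between dendritic cells, with 8043 CPM against 21513 CPM in cDC1-like cells, although at least 5 UMIs were asked of both.

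C-type lectins are receptors for sugars of microbes and host cells, and those measured were nearly all high. Of 18 lectin genes, 12 could be measured. Of these, 11 were at least 2-fold higher than in the other cells and 0 at least 2-fold lower. Over all genes measured the shares were 8.42% and 9.08%. Mgl2 and Cd209a had been used to pick the cells, and without them 9 of 10 were higher. Apart from Mgl2 and Cd209a, Cd209d was at 207 CPM, Cd209e at 135 CPM and Clec4n (dectin-2, a receptor for fungal mannans) at 85.7 CPM. Clec4n was at 82.9, 119, 47.3 and 119 CPM in the rows and stayed at or below 0.843 CPM in the other cells of any row. Clec4a1, Clec4a2, Clec4a3 and Clec4b1, which encode receptors of the DCIR and DCAR family, were at 63.1, 42.3, 44.9 and 42.7 CPM, against at most 1.59 CPM in the other cells. Clec12a, which the cDC2 list also holds, was at 38.6 CPM and thus close to the 33.8 CPM of the other cells, and below the 118 CPM of cDC1-like cells. Clec4a4 was at 4.83 CPM, too low to be compared.

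Fc receptors showed the same direction. Fcer1g, the shared signaling chain, was at 830 CPM against 86.3 CPM in the other cells and 185 CPM in cDC1-like cells. Fcgr3 was at 54.6 CPM against 0.753 CPM, and Fcgr2b, the inhibitory receptor, at 170 CPM against 44.6 CPM. The neonatal receptor Fcgrt was at 190 CPM against 23.9 CPM. Of the 7 genes of this list, 4 could be measured. Each was at least 2-fold higher than in the other cells, against 8.42% of all genes measured. Fcgr1, which marks macrophages and monocyte-derived cells, had UMIs in 0.645% of cDC2-like cells.

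Among chemokines, Ccl17, a ligand of CCR4, stood at 437 CPM (412 to 463), with 370, 482, 435 and 765 CPM in rows 11, 13, 15 and 17, against 7.12 CPM in the other cells and 3.99 CPM in cDC1-like cells. The lowest row lay above the highest value of the comparison classes, 24 CPM in the cDC1-like cells of a row. Cxcl16 was at 296 CPM against 23.6 and 126 CPM, and Ccl9 at 56.4 CPM against 0.977 and 0.839 CPM. Ccl22, a second CCR4 ligand, and Ccl5 were at 338 and 315 CPM, and both came mainly from 26 cells with Ccr7 described below. Of 13 chemokines, 6 could be measured. All 6 were at least 2-fold higher than in the other cells, against 8.42% of all genes measured. Among receptors, Ccr2 was at 172 CPM against 168 CPM in cDC1-like cells. Ccr9, which guides thymic immigrants, was at 17.4 CPM against 48.6 CPM in the other cells.

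Of 6 chemokine receptors measured, 3 were at least 2-fold higher than in the other cells and Ccr9 was lower. Over all genes measured the shares were 8.42% and 9.08%.

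Toll-like receptors were scarce. Of 4 innate sensor genes measured, 2 were at least 2-fold higher than in the other cells, namely Tlr13 and Myd88. Over all genes measured the share was 8.42%. Tlr2, Tlr9 and Tlr13 were each at 20.8 to 21.2 CPM, and Tlr7 had UMIs in 0.968% of the cells. Tlr3, a marker of cDC1, was at 2.6 CPM against 71.7 CPM in cDC1-like cells. Of 6 costimulatory genes, 4 were at least 2-fold higher than in the other cells. Cd40 was at 193 CPM against 57.1 CPM in cDC1-like cells, Icosl at 98.4 against 40.5 CPM, and Pdcd1lg2 at 42.3 against 0.629 CPM. For Cd40, the 26 cells with Ccr7 described below were at 1052 CPM. Cd86 was at 79.1 CPM and thus below the 160 CPM of cDC1-like cells. Of 14 transcription factors of dendritic cells, 9 were at least 2-fold higher than in the other cells, and Irf8 was lower. Spi1 (PU.1) led them with 638 CPM (585 to 745 CPM over the rows), against 109 CPM in the other cells and 548 CPM in cDC1-like cells. Id2 was at 367 CPM, below the 835 CPM of cDC1-like cells.

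Summed over all 310 cells, genes induced by interferon were high in comparison with both classes, but not in each part. The list summed to 1709 CPM, against 952 CPM in cDC1-like cells and 400 CPM in the other cells. Of the 6 groups described below, group 2 was at 4129 CPM and groups 4 to 6 were at 1183 to 1778 CPM. Groups 1 and 3, at 805 and 909 CPM, and row 17, at 660 CPM, lay below cDC1-like cells. Of 9 genes, 8 were at least 2-fold higher than in the other cells, and 7 were at least 2-fold higher than in cDC1-like cells. For this second comparison, 4.98% of all 8168 measured genes were at least 2-fold higher in cDC2-like cells, 2.19% at least 2-fold lower, and the median log2 ratio was -0.04. Isg15 was at 567, 400, 541 and 154 CPM in rows 11, 13, 15 and 17, with 157 CPM in cDC1-like cells over all rows. Oasl2, an antiviral gene, was at 145 CPM against 4.61 CPM. Row 17 was lowest for Isg15, Oasl2 (48.4 CPM), Usp18 (44 CPM) and Irf7 (167 CPM), and it held 28 cells. Irf7 was alike in both dendritic classes, with 383 and 369 CPM.

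The 20 genes with the highest ratio to the other cells were each higher in 4 of 4 rows, by a log2 ratio of 3.39 to 5.17 over all rows. Because they were picked by this ratio in the same cells, their agreement between rows is no test. Beside Mgl2, Cd209a, Sirpa, Csf1r, Ccl17, Ear2 and Mmp12 they held S100a4 and S100a6, which encode calcium-binding proteins. S100a4 was at 1534, 1424, 1504 and 1346 CPM in the rows, against 33.7 CPM in the other cells and 74.9 CPM in cDC1-like cells, and it had UMIs in 95.8% of cDC2-like cells. S100a6 was at 2165 CPM against 121 and 293 CPM. Wfdc17, Ms4a6d and Mcemp1, which are known from myeloid cells, were at 230, 226 and 212 CPM, and at most at 3.77 CPM in the other cells. Gfra2, a receptor for neurturin, was at 107 CPM against 0.781 CPM. Il1b was at 113 CPM against 1.37 CPM. Tnip3, Hfe, Plet1 and H2-M2 completed the list, together with genes of epithelial junctions.

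These junction genes were Epcam at 422 CPM (397 to 447) and Cldn1 at 326 CPM. Cdh1 (E-cadherin), named after its value had been seen among the measured genes, was at 107 CPM against 1.23 CPM in the other cells. Epcam was at 432, 396, 420 and 418 CPM in the 4 rows, in a narrow range, against 21.6 CPM in the other cells and 16.2 CPM in cDC1-like cells. Markers of thymic epithelium were at or near 0 in the same cells. Krt5 and Krt8 were at 0.742 CPM each, Foxn1 and Psmb11 had no UMI, which with 3 UMIs as the limit of a count of 0 allows up to 1.11 CPM, and Aire was at 3.34 CPM in 0.968% of the cells. Cd207, the langerin gene of Langerhans cells, was at 1.86 CPM.

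The genes lowest against the other cells were mainly those of B and plasma cells, and the 10 lowest also held Apoe, Ly6d and Nrgn. Jchain was at 53.8 CPM against 2489 CPM, Cd79a at 2.97 CPM against 483 CPM, and Igkc at 38.6 CPM against 1313 CPM. Apoe was at 3.71 CPM against 321 CPM, and it lay at 2531 CPM in B cell-like cells. Cd79a was limited by the rule. Of 6 B cell genes measured, 6 were at least 2-fold lower, and 5 of 5 without Cd79a.

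Markers of other myeloid cells were split. Each of these lists held few genes to set against the 8.42% higher and 9.08% lower among all genes measured. Of 8 monocyte genes, 3 were at least 2-fold higher than in the other cells, namely Ear2, Ccr2 and Ms4a4c (339 CPM against 29.5 CPM), and 3 were at least 2-fold lower, namely Plac8, Nr4a1 and Itgal. Vcan, Ace and Chil3, which define classical, nonclassical and granulocyte-like monocytes, had no UMI. Of 5 macrophage genes, Mmp12, Cd68, Adgre1 and Axl were at least 2-fold higher, and Apoe was lower. Cd68 was at 236 CPM, as in cDC1-like cells with 225 CPM, and Adgre1 (F4/80) at 36 CPM. Mertk was at 0.371 CPM, Slc40a1 and Cd5l had no UMI. C1qa was at 30.1 CPM, but it was seen in 12 cells and 85.2% of its UMIs lay in 3 of them. Of neutrophil genes, S100a8, S100a9 and Retnlg had no UMI, whereas Cxcr2 was at 34.1 CPM against 0.251 CPM in the other cells. Of 6 plasmacytoid dendritic cell genes, Bst2 was at least 2-fold higher, Ly6d, Ccr9 and Pacsin1 were lower, and Siglech was at 12.2 CPM. Of 3 genes of NK cells and innate lymphoid cells, Klrd1 was higher, with 73.9 CPM against 12.8 CPM, and Gzma and Nkg7 were lower.

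Between the dendritic classes, the genes highest in cDC2-like cells were Ccl17, Ear2, Mmp12, Mgl2, Sirpa, Fscn1, S100a4, Tmem176b, Epcam and H2-M2, with log2 ratios of 3.95 to 5.00. Of 13 cDC2 genes, 11 were at least 2-fold higher and Clec12a was lower, and without the 3 genes of the rule 8 of 10 were higher. Capg, an actin capping gene, was at 225 CPM against 7.13 CPM. Tmem176a and Tmem176b, which encode ion channels of antigen-presenting cells, were at 356 and 625 CPM against 18.2 and 27.5 CPM. Fscn1 and H2-M2 left the 10 highest genes when the 26 cells with Ccr7 were taken out, and Capg and Plet1 entered.

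The genes lowest against cDC1-like cells were Xcr1, Ifi205, Rab7b, Irf8, Clec9a, Ppt1, Gpr141b, Snx22, Gcsam and Mpeg1. Xcr1 and Clec9a were set to 0 by the rule. Irf8, the transcription factor of cDC1, was at 82.9, 117, 104 and 13.2 CPM in rows 11, 13, 15 and 17, against 1529 to 1810 CPM in the cDC1-like cells of the same rows. Ppt1, a lysosomal thioesterase, was at 65.3 CPM against 1132 CPM, and Naaa, a lysosomal amidase, at 138 CPM against 959 CPM. Of 12 cDC1 genes, 9 were at least 2-fold lower and 0 were higher, and without Xcr1 and Clec9a 7 of 10 were lower. Batf3, which is known from both lineages, was at 171 CPM against 277 CPM, and Itgae (CD103) at 85.4 against 82.4 CPM.

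The cells had few transcripts of the T cells at which the sort was aimed. Of 12 T cell genes, 12 were at least 2-fold lower than in the other cells. The sum over Cd3e, Cd3d, Cd3g, Trbc1 and Trbc2 had a median of 1 UMI per cDC2-like cell and of 14 UMIs per other cell, and 36.1% of the cDC2-like cells had none. This sum came to 269, 167, 263 and 405 CPM in rows 11, 13, 15 and 17, and over all rows to 260 CPM against 2384 CPM in the other cells, 162 CPM in cDC1-like cells and 331 CPM in B cell-like cells. The highest count in a single cell was 60, 13, 59 and 58 UMIs in these rows, so that single cells weigh on the differences between them. At least 3 of these UMIs were found in 40 cells and at least 10 in 15 cells, with a maximum of 60. Markers of double-positive thymocytes were low as well, with Cd8a at 6.68 CPM and Rag1 at 10 CPM. The part of this T cell RNA in the levels given here was not tested. No caller of doublets was used, and only doublets between hashtags were removed by the 80% limit.

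Among all barcodes that passed the filters on genes and mitochondrial UMIs, 415 met the gene rule. Of these, 310 had 1 of the 4 rows, 5 had row 12, 14, 16 or 18, and 100 (24.1%, 20.1 to 28.5) had no row with 80% of their hashtag UMIs. The latter had a median of 11714 UMIs and 12 T cell UMIs, against 8680 and 1 in the barcodes with a single row. For cDC1-like and B cell-like barcodes the share without a single row was 23.4% and 23.8%, and for all barcodes it was 17.6%. Among rows 12, 14, 16 and 18 the 5 cells lay in row 16 (2 cells) and row 18 (3 cells).

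The hashtag library was read from the same cells, and the rule used it through a minimum of 10 hashtag UMIs and the 80% share on 1 row. The cDC2-like cells carried a median of 3308, 3361, 3621 and 4343 hashtag UMIs in rows 11, 13, 15 and 17, against 1542, 1502, 1419.5 and 1966 in the other cells of these rows. The ratio of the medians was thus between 2.15 and 2.55 in each row. The cDC1-like cells lay closer to the other cells, with a median of 1753 over all rows, and B cell-like cells lay between with 2836. Per 1000 gene UMIs the order was another one, with 519.5 hashtag UMIs in B cell-like, 416 in cDC2-like, 208 in the other and 158 in cDC1-like cells. Hashtag antibodies bind CD45 and MHC class I. Ptprc (CD45) was at 363 CPM in cDC2-like cells and at 350 CPM in the other cells. Of the class I genes, H2-K1 was at 1496 against 779 CPM, H2-D1 at 2192 against 931 CPM, and B2m at 2048 against 828 CPM. In cDC1-like cells, which were deeper in gene UMIs, H2-K1 and B2m were at 749 and 829 CPM.

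**Figure D3:**
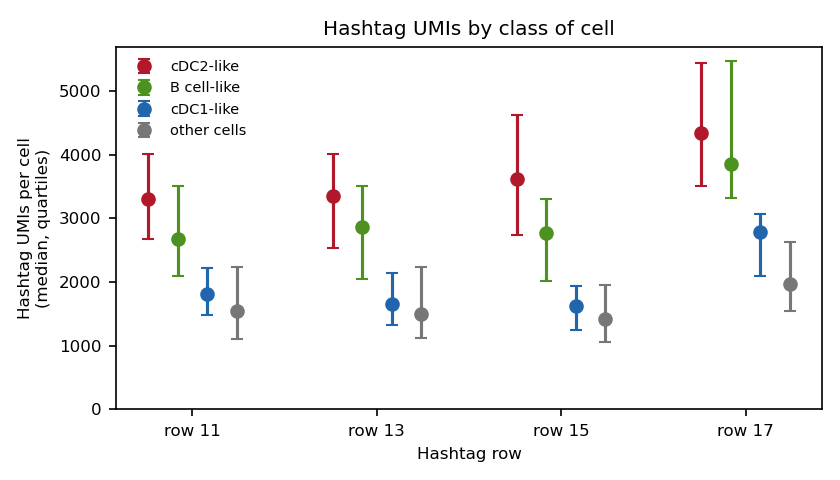
Hashtag UMIs per cell (y axis) in hashtag rows 11, 13, 15 and 17 (x axis) for cDC2-like, B cell-like, cDC1-like and all other cells. Points are medians and bars run from the lower to the upper quartile. In each row the cDC2-like cells have the highest median, between 3308 and 4343.

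The 310 cells were grouped with Seurat without the genes of the rule and without Lyz2, Ear2, Mmp12 and Ccl17, which gave 6 groups of 93, 63, 60, 45, 26 and 23 cells. A group is described by the genes that lead it, and since these genes formed the group they are no test of it. Shares of the groups per row overlapped widely in their intervals. Group 1, the largest, made up 26.9%, 38.6%, 27.7% and 35.7% of the cDC2-like cells of rows 11, 13, 15 and 17. Group 6 had 9 cells in row 15 and 0 of 28 in row 17, where 3 cells as the limit of a count of 0 allow a share of up to 10.7% and the Clopper-Pearson interval reaches 12.3%.

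The 10 leading genes of group 1 were Ccl6, Creld2, Lyz2, Atf5, F10, Manf, Nupr1, Hyou1, Hspa5 and Sdf2l1, and 5 of them, Creld2, Manf, Hyou1, Hspa5 and Sdf2l1, act in protein folding or stress of the endoplasmic reticulum. Hspa5 (BiP) was at 1817 CPM against 247 to 847 CPM in the other groups, Sdf2l1 at 1116 against 112 to 425 CPM, Manf at 797 against 76.4 to 353 CPM, and Creld2 at 390 against 22.5 to 123 CPM. Irf4, Plet1 and Clec4n were also highest here, with 150, 215 and 143 CPM. Ccl6 was at 232 CPM, but 49.1% of its UMIs over all cDC2-like cells lay in 1 cell, without which group 1 was at 96.9 CPM.

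Group 2 had the highest sum over the list of interferon-induced genes, 4129 CPM against 805 to 1778 CPM in the other groups. Isg15 was at 1212 CPM against 210 to 544 CPM in the other groups, Irf7 at 978 against 169 to 505 CPM, Ifit3 at 254 against 22.3 to 40.4 CPM, and Oasl2 at 321 against 75 to 191 CPM. Ly6a (Sca-1) was at 1212 CPM and Itgae at 212 CPM, both highest in this group. Ifit3 has a near copy, Ifit3b, so that their reads may be split. Plac8 was at 325 CPM against 8.99 to 185 CPM.

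The 10 leading genes of group 3 were Cyp7b1, Ly6c2, Cd209d, Apod, Tnfsf9, Lag3, Ngfr, Cd209e, Snx18 and Cd209c, of which 3 are lectins of the Cd209 family. Cd209d was at 606 CPM against 0 to 267 CPM in the other groups, Cd209e at 294 against 0 to 191 CPM, and Cd209c at 72.2 against 0 to 39.7 CPM. Without the cell with most Cd209d, the group was at 444 CPM for this gene. Cyp7b1 was seen in 9 cDC2-like cells, and 72.4% of its UMIs lay in 3 of them. Cd209a, which was not used for the grouping, was at 947 CPM and thus near the 994 CPM of group 1. Lag3, an inhibitory receptor for MHC class II, was at 110 CPM, and at 59.6 CPM without 1 cell that held 18 of its UMIs. Ly6c2 (Ly6C) was at 473 CPM, but 1 cell held 24.4% of its UMIs over all cDC2-like cells, and without it the group was at 229 CPM. These cells were the shallowest, with a median of 5525.5 UMIs.

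The cell cycle list summed to 5016 CPM in group 4 and to 3022 CPM in group 6, against 382 to 517 CPM in the other groups. In group 4, Mki67, Top2a and Rrm2 were at 554, 474 and 208 CPM, against 16.1 to 196, 12.4 to 53.9 and 0 to 8.66 CPM in the other groups, which marks DNA synthesis and the later cycle. It was also the deepest group, with a median of 11615 UMIs. Dntt, the terminal transferase of thymocytes, was among its 10 leading genes with 128 CPM, and the 5 T cell transcripts summed to 472 CPM, with at least 3 UMIs in 11 of 45 cells. Most of this lay in 3 cells with 58 to 60 T cell UMIs, which held 177 of the 272 UMIs, and without these cells the sum was 189 CPM and Dntt was at 63.7 CPM. In group 6, the mitotic genes Ccnb2, Cenpa and Cdc20 were at 460.5, 411 and 191 CPM. Epcam reached 1058 CPM there, against 44.9 to 499 CPM in the other groups, and Cdh1 220 CPM. Over all 310 cells, however, 12 of 13 cell cycle genes were at least 2-fold lower than in the other cells, and Mki67 was at 149 CPM against 417 CPM.

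Group 5, of 26 cells, was led by genes of activated dendritic cells and held few or no UMIs of Mgl2 and Cd209a. Ccr7 was at 1676 CPM against 0 to 15.6 CPM in the other groups, Fscn1 at 6162 against 18.6 to 78.1 CPM, Ccl22 at 3587 against 6.2 to 149 CPM, and Apol7c at 2917 against 0 to 48.6 CPM. Il4i1, an enzyme that degrades aromatic amino acids, was at 3061 CPM. Relb and Cd40 were at 971 and 1052 CPM. Mgl2 was at 18 CPM in 2 cells, Cd209a had no UMI, Csf1r was at 4.49 CPM and Kmo at 4.49 CPM. Of the 26 cells, 24 had neither Mgl2 nor Cd209a and had entered through Sirpa, which was at 256 CPM. Of the other genes of the cDC2 list, Ccl17 (939 CPM), Tmem176a (1326 CPM), Tmem176b (1748 CPM), Zeb2 (76.4 CPM) and Irf4 (71.9 CPM) were within or above the range of the other groups. Klf4 was below that range, with 13.5 CPM against 59.4 to 167 CPM, and Clec10a, Clec12a and Cx3cr1 had no UMI, against 4.9 to 85.6, 20.2 to 64.9 and 7.42 to 57.3 CPM. Itgam and Clec4a4, which at least 1 other group also lacked, had no UMI either. Ccl5 was at 3506 CPM, of which 1 cell held a large part, and without that cell the group was at 2397 CPM. These cells thus carried markers of activated dendritic cells and were let in mainly by Sirpa. Over all 310 cells, 9 of 14 genes of the activated DC list were at least 2-fold higher than in the other cells, against 8.42% of all genes measured. Group 5 gave most of this, since the list summed to 25605 CPM there. It came to 787 to 1347 CPM in the other groups and to 809 CPM in the other cells. The T cell transcripts summed to 481 CPM in this group, and to 156 CPM without the 3 cells with most of them.

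Further cells with Ccr7 lay just outside the rule. Of the 55 cells that lacked only a UMI of Mgl2, Cd209a and Sirpa, 26 had Ccr7, at 1730 CPM. In these, Fscn1 was at 6127 CPM, Ccl22 at 3663, Ccl17 at 808, H2-M2 at 1606 and Tmem176b at 1579 CPM, against 6162, 3587, 939, 1587 and 1748 CPM in group 5, with overlapping intervals for each of the 5 genes. Irf8 was at 234 CPM outside and 220 CPM inside. Apol7c (1873 against 2917 CPM) and Il4i1 (2010 against 3061 CPM) were lower outside, and Ccl5 was higher (5343 against 3506 CPM), although few cells make up each sum. In Ccl5, 1 cell of group 5 held 267 of the UMIs. Aire was higher outside, with 184 CPM (131 to 250) against 40.4 CPM (18.5 to 76.8), and Ear2 had no UMI outside (up to 16.9 CPM) against 49.4 CPM (24.7 to 88.5). The other 29 cells without the 3 receptor genes had no Ccr7 and were at 1831 CPM for Irf8, near the 1713 CPM of cDC1-like cells.

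**Figure D4:**
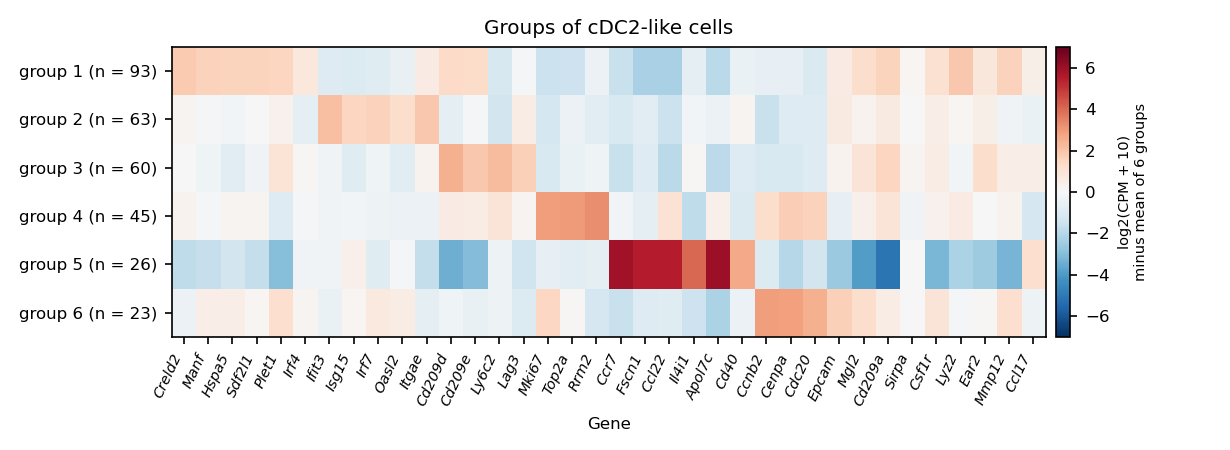
Levels of 36 genes (x axis) in the 6 groups of cDC2-like cells (y axis, with the number of cells), as log2(CPM + 10) minus the mean of the 6 groups. Group 5 stands apart by Ccr7, Fscn1, Ccl22, Il4i1 and Apol7c and by low Mgl2, Cd209a and Csf1r. Mgl2, Cd209a, Sirpa, Lyz2, Ear2, Mmp12 and Ccl17 were not used to form the groups.

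Lyz2, Ear2, Mmp12 and Ccl17 were each seen in a part of the cells. Lyz2 encodes lysozyme M, Ear2 an eosinophil-associated ribonuclease, and Mmp12 the macrophage elastase. Ear2 has close paralogs, so that its reads may be shared with them. UMIs were found in 54.5% of the cells for Lyz2 (48.8 to 60.2), 66.8% for Ear2 (61.2 to 72), 42.9% for Mmp12 (37.3 to 48.6) and 48.7% for Ccl17 (43 to 54.4). In B cell-like cells of the same rows, with a median of 5143 UMIs against 8700.5, the shares were 1.46%, 0.418%, 0.209% and 1.04%. When each cell was thinned to 2000 UMIs, which left out 1 cell, the shares in cDC2-like cells were 31.1%, 46%, 27.5% and 32.4%.

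Ear2 was at 459 CPM (434 to 486), with 397, 337, 573 and 862 CPM in rows 11, 13, 15 and 17. Mmp12 was at 230 CPM (212 to 249), with 167, 265, 269 and 462 CPM. For Ear2 row 17, with the fewest cells, was highest, and the thinned share of cells with Ear2 was 66.7% there against 35.1% to 58.5% in the other rows. Row 17 was also highest for Mmp12 and Ccl17, but single cells weighed on these levels. Without the 2 cDC2-like cells with most Mmp12, both of row 17, the row was at 253 CPM. Without the cell with most Ccl17 it was at 479.9 CPM. Each value was below row 13, from which no cell was taken out. The thinned share of cells with Mmp12 was highest in row 17, at 40.7% against 21.25% to 35.4% in the other rows. For Ccl17 it was 37% against 31.25% to 33.3%. In cDC1-like cells Ear2 was at 10.5 CPM and Mmp12 at 0.629 CPM, so that the lowest row of cDC2-like cells exceeded them in both genes.

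Lyz2 was spread most unevenly. It was at 497 CPM (471 to 524) against 49 CPM in the other cells and 222 CPM in cDC1-like cells, with 331, 410, 1128 and 273 CPM in rows 11, 13, 15 and 17. In row 15, 2 cells held much of the level. The 31 cells with most Lyz2 held 73.6% of its UMIs, against 40.1% for Ear2, 56% for Mmp12 and 63.2% for Ccl17. A single cell of row 15 had 220 UMIs of Lyz2, and without it the row was at 727 CPM and all cDC2-like cells at 417 CPM. A second cell of row 15 had 182 UMIs, and without both all cDC2-like cells were at 351 CPM and the row was at 384 CPM. This lay within the 273 to 410 CPM of the other rows, from which no cell was taken out. The first cell held 61 UMIs of Fn1, 110 of Ccl6 and 11 of C1qb, with 4 of Sirpa and none of Mgl2, Cd209a, Itgax or Flt3. It thus had monocyte and macrophage transcripts and had entered the class through Sirpa. The second held 82 UMIs of C1qb, 60.3% of all in the class, with 8 of Csf1r, 1 of Sirpa and none of Mgl2, Cd209a, Itgax or Flt3. Further cells with much Lyz2 were at 10511 CPM in row 13 and at 10017 CPM in row 11, and both were kept in the levels above. The thinned share of cells with Lyz2 was highest in row 15, at 43.1% against 26.3% to 33.3% in the other rows.

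Across the groups, which were formed without them, the 4 genes differed in where they peaked. Lyz2 and Mmp12 were highest in group 1, with 1001 and 427 CPM, but both cells of row 15 named above lay in this group. Without them Lyz2 was at 518 CPM there, against 401 CPM in group 4. The cell of row 13 at 10511 CPM also lay in group 1 and was kept, so no difference from group 4 is read. After thinning, 48.4% of the cells of group 1 had Lyz2, against 0% to 39.1% in the other groups. Ear2 was highest in group 3, with 776 CPM, and lowest in group 5, with 49.4 CPM. Ccl17 was highest in group 5 with 939 CPM and lowest in the dividing group 4 with 177 CPM. In group 5 a single cell gave much of it, and without it the group was at 653 CPM, close to the 586 CPM of group 3 and the 545 CPM of group 1. Mmp12 had 1 UMI in all of group 5 (4.49 CPM). The low level in that group was thus shared by Lyz2 (49.4 CPM), Ear2 and Mmp12, whereas Ccl17 was not low there.

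**Figure D5:**
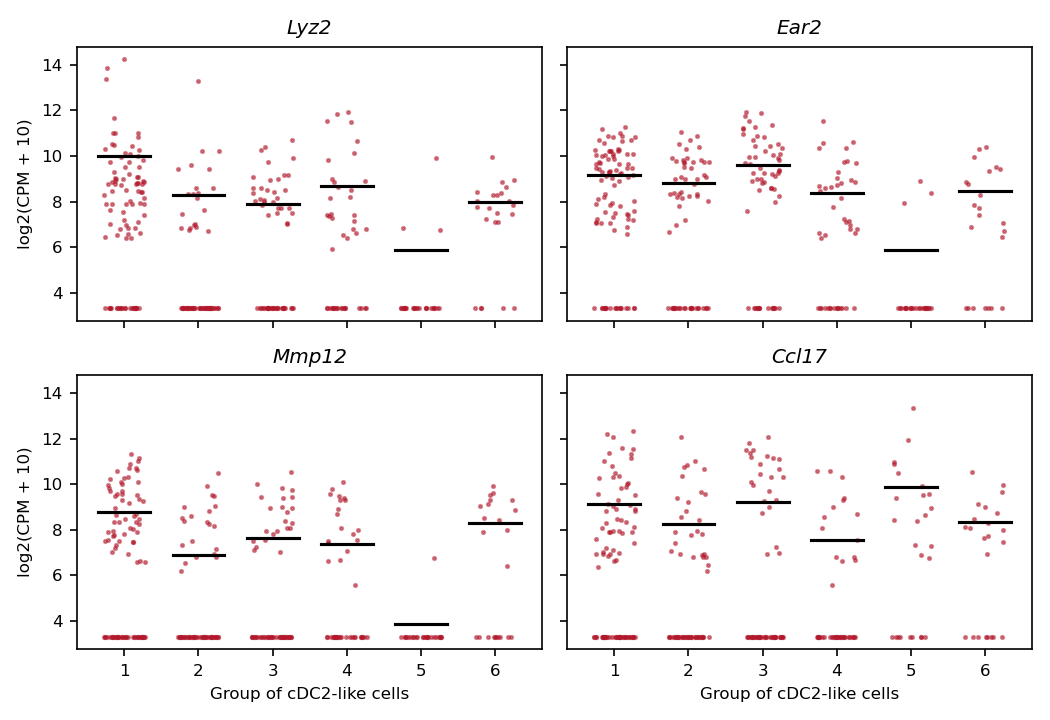
Lyz2, Ear2, Mmp12 and Ccl17 in single cDC2-like cells, as log2(CPM + 10) of the cell (y axis) by group (x axis, 1 to 6). Each point is a cell, points at the bottom are cells without a UMI, and black lines are the level of the summed cells of the group, which runs from 49.4 CPM in group 5 to 1001 CPM in group 1 for Lyz2.

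The 4 genes were only loosely linked in single cells. Across the 309 thinned cells, Spearman's rho ran from -0.04 for Lyz2 with Ccl17 to 0.24 for Ear2 with Mmp12, as a description over cells of 1 library that share depth. None of the 4 genes was seen in 81 thinned cells, 1 of them in 100, 2 in 72, 3 in 45 and all 4 in 11. Of the cells with Mmp12, 65.9% also had Ear2, which was seen in 46% of all thinned cells, and of those with Ear2, 39.4% had Mmp12, against 27.5% of all. Of the cells with Lyz2, 29.2% had Ccl17, against 32.4% of all. With counts as sparse as these, a weak correlation does not show that the genes are unrelated in the cells.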

How the data were processed

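The authors aligned the reads and counted UMIs with Cell Ranger 6.0.0 (build mm10), and deposited raw counts per gene or hashtag row and barcode in 1 matrix of all 8 populations. Transcripts were read from the 5′ end.

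Cells were filtered and assigned to a hashtag row as stated in the report. Doublets between hashtags fell out through the 80% limit, and no doublet caller was run. UMIs were summed over the cells of a class and divided by their total to give CPM, with exact Poisson intervals, and shares have Clopper-Pearson intervals, at 95%. No test was run, because all cells came from 1 pool. Genes other than ribosomal, mitochondrial, Gm and V(D)J segment genes were compared if at least 10% of the cells of either class held a UMI, and "2-fold" is a difference of 1 in log2(CPM + 10). Groups were made with Seurat 5.3.0 in R 4.3.3 (2000 variable genes, 30 components, resolution 0.8, without ribosomal and Gm genes). Python 3.11.15 was used for the rest. Ratios and groups were tested on simulated data. The cells and gene lists were chosen with earlier results of these data known. Named genes were those of the lists, the 20 highest and 10 lowest against the other cells, the 10 each way against cDC1-like cells, the 10 leading each group, and Kidins220. Single cells that set a level, and the cells outside the rule, were looked up after the levels had been seen. Alternatives were other limits of the rule, filters, rows left out, pseudocounts, totals and group settings. Some genes are not reported here.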

Additional observations from a re-analysis of the deposited data

Results flagged for a closer look

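The level of Lyz2 in the cDC2-like cells of row 15, 1128 CPM, lay far from the other 3 rows, which had 273 to 410 CPM. Among 4 values chance alone marks about 1 in 20 sets in this way. Much of the level lay in 2 cells. Without the cell with 220 Lyz2 UMIs the row was at 727 CPM. Without the cell with 182 as well it was at 384 CPM, within the range of the other rows. In that range, rows 11 and 13 kept single cells at 10017 and 10511 CPM. There were 100 barcodes with the cDC2 genes but without a hashtag row holding 80% of their hashtag UMIs, and these were not used for any level above. Their median of 12 T cell UMIs compares with 1 in the barcodes with a single row. In rows 12, 14, 16 and 18, 5 cells met the gene rule, which is fewer than in any of the 4 rows described.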

How the results depend on the processing

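No paired analysis was possible because no groups were compared, as the hashtag rows could not be tied to the labelled populations. Ratios were recomputed for 31 genes against the other cells and, under 1 alternative, for 20 genes against cDC1-like cells, and 0 changed direction. Most of these genes had been picked for the highest or lowest ratios, so this count is no test of direction. Ratios of the other list genes and of the genes leading the groups were not recomputed. The count of genes at least 2-fold lower than in the other cells was 1389 with a pseudocount of 1 CPM, against 763. Lyz2 moved to 528 CPM at a hashtag share of at least 90%, and Ear2 and Mmp12 to 495 and 249.8 CPM with at most 4000 genes. With a sum of at least 3 UMIs over Mgl2, Cd209a and Sirpa, Ear2 and Mmp12 were at 501 and 257 CPM. Without cells with 3 or more T cell UMIs, Lyz2 and Mmp12 were at 562 and 249 CPM. As mean CPM per cell, Lyz2, Ear2 and Ccl17 were at 466, 532 and 475 CPM. With ribosomal, mitochondrial and Gm genes out of the total, Lyz2, Ear2, Mmp12 and Ccl17 were at 618, 572, 286 and 544 CPM.

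Chosen after seeing the data, leaving out group 5 gave 537, 496, 250.4 and 392 CPM, and at least 1 UMI of Mgl2 or Cd209a gave 385 CPM for Lyz2, 527 for Ear2 and 264 for Mmp12. Leaving out each row gave 150 to 282 cells, 683 to 763 genes higher, 719 to 951 genes lower, 343 to 687 CPM for Lyz2, 422 to 531 for Ear2, 209 to 302 for Mmp12 and 407 to 513 for Ccl17. The 150 cells are those without row 11, and Lyz2 was lowest without row 15. The number of groups was 4 to 7 under the other settings, and the group with Ccr7 held 26 cells in each but the one without cells with T cell transcripts, where it held 19. The causes were not tested. Row 17, with 28 cells, and the groups of 23 and 26 cells limit the precision most.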
